A study of Mus musculus with 6 samples.

Results

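The lysosome of microglia, the resident macrophages of the brain, was examined through 44 of its genes other than the cathepsins, taken by symbol from the 48587 mouse genes in the deposited count table. They comprised 19 hydrolases, 4 luminal cofactors of hydrolases or lipids, 6 membrane proteins and 15 subunits or accessory proteins of the proton pump. All 44 were in the table and all 44 had enough reads to be tested. About 1000 microglia per sample had been sorted by flow cytometry from C57BL/6 mice at postnatal day 42, with 3 samples labelled wild type and 3 labelled Lyl1 KO. Lyl1 encodes a DNA-binding protein of the helix-loop-helix class, known from leukaemia and blood development, and the series title ties it to primitive macrophages and microglia. The labels give neither the design of the knockout allele nor the sex of the animals. They do not say whether samples of a group came from separate mice, so a p-value here reflects only how far these samples scatter, and that scatter may be technical.

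Lysosomal hydrolases break down protein, glycan, lipid and glycogen in an acid lumen, and many depend on small cofactor proteins that present a lipid to the enzyme. The acid is made by the V-ATPase, in which a cytosolic V1 sector splits ATP and a membrane V0 sector carries protons, while membrane glycoproteins, lipid transporters and channels line the organelle. Microglia digest synaptic material, myelin and dying cells in their lysosomes, and loss of single members causes storage disorders with neurodegeneration. Many lysosomal promoters carry the E-box CACGTG, the core of the element bound by TFEB, TFE3 and MITF.

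The 6 libraries held 12753945 to 27378614 reads assigned to genes. Levels are given as CPM, counts scaled to a common library size with TMM factors, and 3 reads corresponded to 0.104 to 0.264 CPM. Lyl1 itself stood at 60.2, 55.6 and 40.0 CPM in wild-type samples 1 to 3 and at 9.03, 12.0 and 14.3 CPM in knockout samples 1 to 3. Wild-type samples 1 and 2 and knockout sample 1 had 12827 to 13085 genes with a read, against 14923 to 15652 in the other 3 samples. Xist, the RNA of the inactive X chromosome in female cells, was at 349 CPM in knockout sample 1, at 412 CPM in knockout sample 3 and at 0.203 to 1.41 CPM in the other 4. High Xist was thus confined to knockout samples, so a difference tied to it is partly confounded with genotype. The 10 microglial markers summed to 44563 to 48053 CPM in the wild-type samples and to 43882 to 48086 CPM in the knockouts. Of other cells' markers, the 10 monocyte and neutrophil genes summed to at most 7.04 CPM and the 10 neuronal genes to at most 7.62 CPM. The 10 astrocyte genes summed to 176 to 412 CPM for wild type and 170 to 258 CPM for knockout, nearly all from Slc1a3, with Gfap at 0. The 8 lymphocyte genes summed to 55.9 to 131 and 73.5 to 132 CPM, nearly all from Cd79b, with Cd3e at 0. Sums for the 10 oligodendrocyte genes were 47.4 to 379 and 109 to 215 CPM, mostly from Mbp, Cnp and Mag, and those for the 10 endothelial and pericyte genes were 26.1 to 243 and 68.1 to 137 CPM, mostly from Pecam1 and Slc2a1, with Cldn5 at 0. The part of these cells in the results was not tested. Border macrophage genes reached 95.8 CPM in wild-type sample 1, nearly all from Mrc1, and erythroid genes reached 227 and 65.3 CPM in knockout samples 1 and 2. In bulk RNA of this kind fewer cells of a type and less RNA per cell cannot be told apart.

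The E-box is shown first because TFEB, TFE3 and MITF, which can bind it, are known regulators of lysosomal genes. RefSeq promoter windows (GRCm38.p6, 250 bases before to 50 after the start) were found for 38 of the 44 members. CACGTG, which reads the same on both strands, was in the window of 13 of the 38 members, or 34.2%, and in 8.09% of 27025 mouse genes. The longer palindrome TCACGTGA, which contains CACGTG, was in 6 of the 38 members, or 15.8%, and in 1.12% of genes. CAGATG, an E-box of dimers of LYL1 or its relative TAL1 searched on both strands, was in the windows of Arsa, Atp6ap1 and Grn, 7.89% of the members, against 19.2% of genes. A match is a description of the letters and not a bound site. The stretches below, on the strand of the gene and 5′ to 3′, belong to 2 membrane proteins with 2 or more matches, 2 hydrolases and a V0 subunit, and capitals mark CACGTG.
Lamp1, chr8:13159080-13159160, plus strand: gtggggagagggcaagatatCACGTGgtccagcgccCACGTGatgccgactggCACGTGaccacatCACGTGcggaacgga
Mcoln1, chr8:3500428-3500499, plus strand: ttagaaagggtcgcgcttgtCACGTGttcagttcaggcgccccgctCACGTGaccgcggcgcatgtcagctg
Gla, chrX:134601174-134601252, minus strand: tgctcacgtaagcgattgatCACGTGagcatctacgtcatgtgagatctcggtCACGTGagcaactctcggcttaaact
Naglu, chr11:101070001-101070046, plus strand: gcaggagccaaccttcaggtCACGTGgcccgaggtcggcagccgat
Atp6v0b, chr4:117887330-117887385, minus strand: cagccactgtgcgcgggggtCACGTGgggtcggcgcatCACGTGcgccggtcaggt
Lamp1 held 4 matches between 61 and 15 bases before its RefSeq start, the most of any member. In Gla, whose 2 matches lie 227 and 194 bases before the start, both are part of TCACGTGA. The other members with CACGTG were Arsa, Atp6v0d1, Atp6v0e, Atp6v1a, Cln3, Gaa, Glb1 and Lgmn.

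Per kilobase of transcript, which allows genes to be compared, the RNA of the members was dominated by a few luminal and membrane proteins. This ranking leaves out the cathepsins and all other lysosomal genes that are not members. Cd68, a macrophage lysosomal glycoprotein outside the members, had a mean of 1305 CPM per kilobase over the 6 samples. Lgmn, the asparaginyl endopeptidase legumain, had the highest level of all members at 2974 ± 147 CPM per kilobase (SD, n = 3) in wild type and 2867 ± 85.7 (SD, n = 3) in knockout. Laptm5, a lysosomal membrane protein of blood-lineage cells, followed at 2037 ± 290 in wild type and 1937 ± 76.7 in knockout. Next came progranulin (Grn), Hexa, Psap and Lamp1, whose means over the 6 samples ran from 1271 down to 861 CPM per kilobase. Their order depended on the sample, since Hexa exceeded Grn in wild-type sample 1, at 1342 against 1136 CPM per kilobase, and not in the other 5 samples. The lowest members were Gla at 3.96 and Galc at 9.24 CPM per kilobase, enzymes that remove galactose from glycosphingolipids. With the length of all annotated exons in place of the main transcript, Lgmn and Laptm5 remained first and second at 2502 and 1364 CPM per kilobase, and Grn moved from rank 3 to rank 5.

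**Figure D1:**
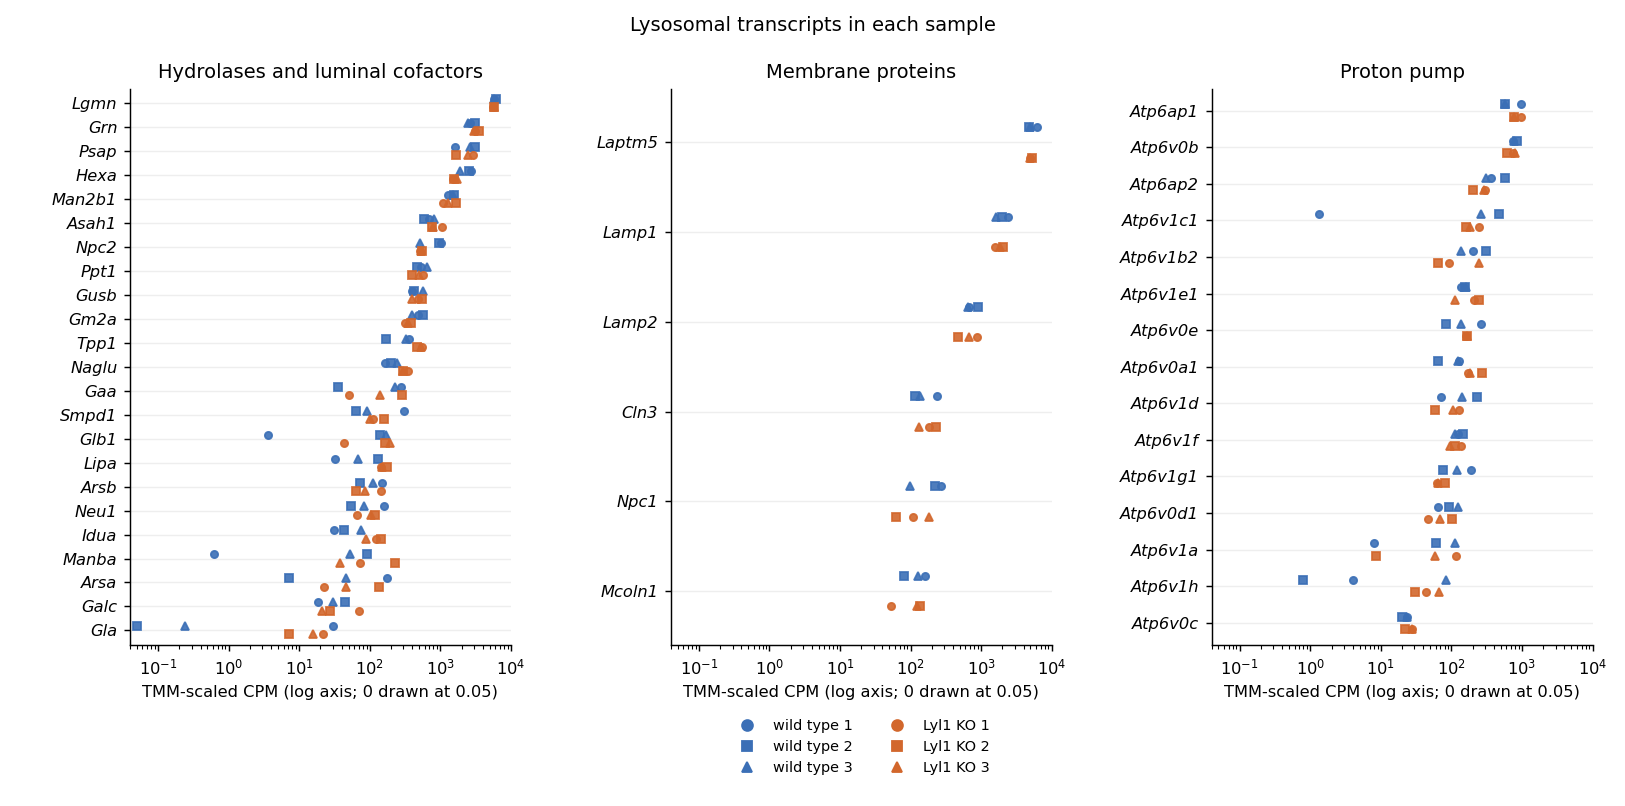
TMM-scaled CPM (log axis) of each member in wild-type samples 1 to 3 (blue) and Lyl1 KO samples 1 to 3 (orange), for hydrolases and luminal cofactors, membrane proteins and the proton pump, ordered by mean level. Some rows hold single points far to the left, such as Gla at 0 in wild-type sample 2 and Atp6v1c1 at 1.32 CPM in wild-type sample 1, while Lgmn, Grn and Laptm5 lie close together in all 6 samples.

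The members together took 2.85% to 3.14% of the reads in each sample. Summed CPM of the hydrolases and cofactors was 18867, 20611 and 18685 in wild-type samples 1 to 3 and 18921, 19181 and 18580 in knockout samples 1 to 3. Membrane proteins summed to 8530 ± 1234 CPM (SD, n = 3) in wild type and 7935 ± 247 CPM in the knockouts, and the pump to 3405 ± 275 and 3223 ± 267 CPM. In each of the 3 sums the genotypes overlapped.

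No member passed the test between genotypes. With edgeR's quasi-likelihood test and Benjamini-Hochberg adjustment over 10394 genes, 0.0% of the genes and none of the 44 members had an adjusted p under 0.05, and every member's adjusted p was 0.9999. The common coefficient of variation that edgeR estimated across genes was wide, at 1.27, so a lack of calls does not show that levels were unchanged. At an unadjusted p under 0.05 there were 4 members, Hexa, Tpp1, Npc2 and Atp6v0a1, or 9.09% of the 44, against 295 genes or 2.84% of those tested. In 5 members, or 11.4%, each knockout sample was above each wild-type sample, against 5.97% of all tested genes, and in 3, or 6.82%, each was below, against 5.19%. Those above were Tpp1, Naglu, Idua, Lipa and Atp6v0a1, and those below were Hexa, Gm2a and Atp6ap2. The fitted change was upward for 19 members and downward for 25, and the split was 27 to 17 with upper-quartile scaling. The members' median log2 fold change was -0.07, beside -0.03 over all tested genes. Upper-quartile scaling moved the median of all tested genes to 0.09, and relative to that median the members lay at -0.04 under both scalings. With log2 CPM of Xist as a covariate none of the members had an unadjusted p under 0.05, against 3.45% of all tested genes. The 3 samples with the most genes were wild-type sample 3 and knockout samples 2 and 3, a set chosen after the data were seen. With no other wild-type sample in it, that fit is used below for the size of changes.

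**Figure D2:**
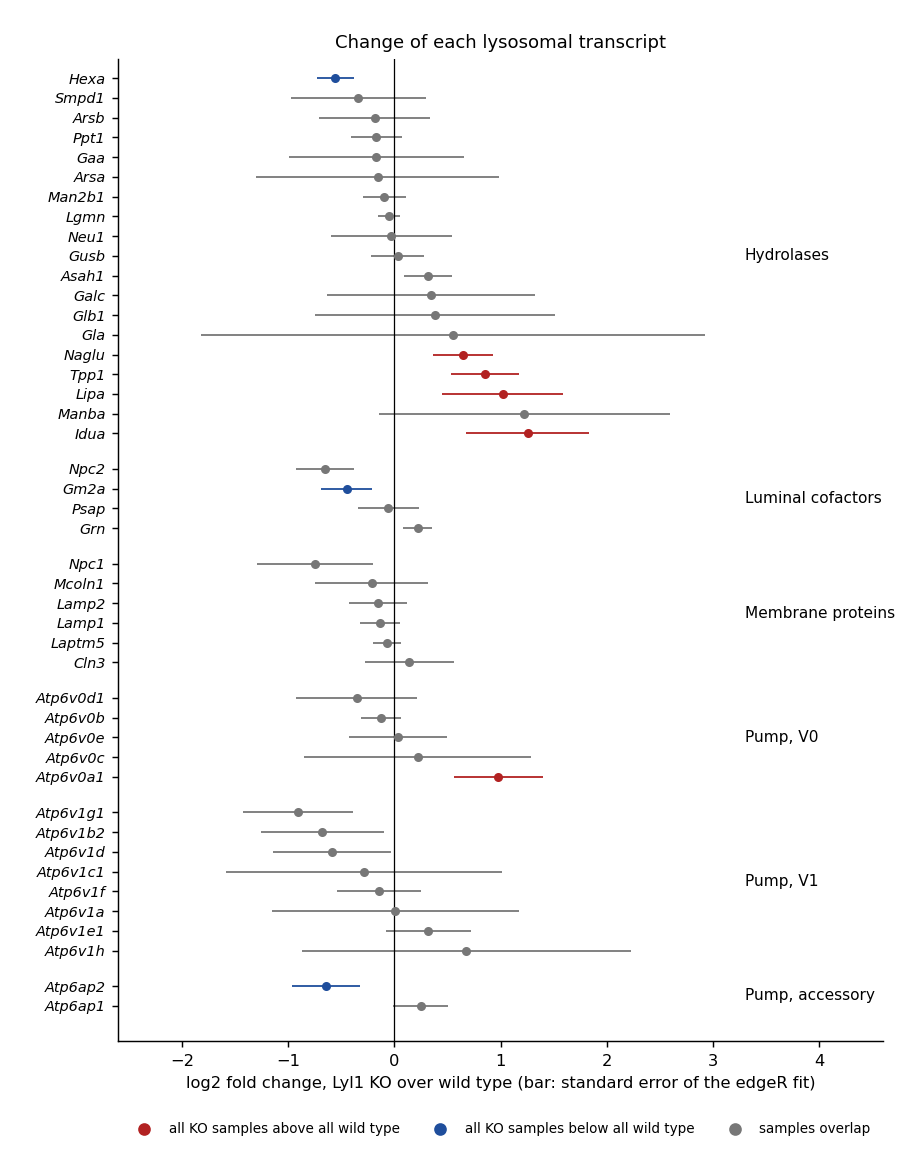
Fitted log2 fold change of each member, Lyl1 KO over wild type, with the standard error as a bar, grouped by role. Red and blue points are the 5 and 3 members whose genotypes did not overlap, higher and lower in knockout, and grey points are members whose samples overlapped.

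Among the 19 hydrolases, 10 had an upward and 9 a downward fitted change, 14 and 5 with upper-quartile scaling, and the median was 0.03, which turned to -0.01 with RLE scaling and was 0.06 above that of all tested genes. Hexa (chr9:59539540-59565109, plus strand, GRCm38), the alpha subunit of beta-hexosaminidase, which trims GM2 ganglioside, stood at 2680, 2565 and 1892 CPM in wild-type samples 1 to 3 and at 1529, 1585 and 1743 CPM in the knockouts. All knockout values were below all wild-type values, wild-type sample 3 lying nearest to them. The wild-type mean was 1.47-fold the knockout mean, a log2 fold change of -0.55 ± 0.17 (SE), and Hexa had the smallest p of the members. Its change was -0.18 in the 3 samples with the most genes. Of its 50-base stretches 10.6% also occur in another gene's transcripts, mainly the opposite-strand Tmem202, which had reads in knockout sample 3 only, at 9.01 CPM. The library type does not record strand.

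Tpp1 (chr7:105744811-105752235, minus strand) encodes tripeptidyl peptidase, which removes tripeptides from protein ends. Its levels were 354, 169 and 331 CPM in the wild-type samples and 547, 463 and 531 CPM in the knockouts. The knockout samples lay above and close together, and wild-type sample 2 was the lowest. The log2 fold change was 0.85 ± 0.32 (SE).

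Enzymes of heparan sulphate breakdown were among the members higher in each knockout sample. Naglu (chr11:101070012-101077672, plus strand), the N-acetylglucosaminidase, stood at 162, 202 and 241 CPM in the wild-type samples and at 351, 295 and 299 CPM in the knockouts, with a log2 fold change of 0.64 ± 0.28 (SE). Idua (chr5:108660331-108684557, plus strand), the iduronidase, ran at 30.8, 43.0 and 74.5 CPM in the wild-type samples and at 121, 145 and 88.0 CPM in the knockouts. Here wild-type sample 3 and knockout sample 3 were the closest pair. Its change was the widest of the 8 members without overlap, at 1.25 ± 0.58 on the log2 scale (SE). Slc26a1 and Dgkq, whose exons overlap those of Idua on the other strand, were at 0.572 CPM or less except for Dgkq at 0.811 and 14.6 CPM in wild-type sample 3 and knockout sample 3. Gusb and Arsb, which also act on glycosaminoglycans, had log2 fold changes of 0.03 and -0.18, and 57.8% of the 50-base stretches of Arsb occur in other genes' transcripts.

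Lipa (chr19:34492318-34527474, minus strand), the acid lipase that frees cholesterol from its esters, was at 31.8, 132 and 68.5 CPM in the wild-type samples and at 146, 178 and 148 CPM in the knockouts. Wild-type sample 2 came close to the knockout range, and the log2 fold change was 1.02 ± 0.57 (SE). Asah1, the acid ceramidase, stood at 687, 586 and 812 CPM in the wild-type samples and at 1056, 758 and 783 CPM in the knockouts. Its genotypes overlapped through wild-type sample 3, and its change was 0.32 ± 0.22 (SE). Lgmn, at 5815, 6248 and 5691 CPM in the wild-type samples and 5516, 5846 and 5755 CPM in the knockouts, had the smallest standard error of the members, with a log2 fold change of -0.05 ± 0.10.

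The other 10 hydrolases overlapped between genotypes, with log2 fold changes from -0.34 for Smpd1, the acid sphingomyelinase, to 1.22 for Manba, the beta-mannosidase. The estimate for Manba carried a standard error of 1.37, since it had 7 reads in wild-type sample 1 and 1097 to 4474 in the others. Gla, the alpha-galactosidase, was the only member with 3 reads or fewer in a sample. Its reads numbered 344, 0 and 5 in the wild-type samples and 494, 142 and 454 in the knockouts, or 30.3, 0 and 0.238 CPM against 21.8, 7.22 and 15.8 CPM. The 0 in wild-type sample 2 allows a level of up to 0.119 CPM, counting error only. Man2b1, the alpha-mannosidase, and Ppt1, which removes palmitate from proteins, had changes of -0.09 ± 0.21 and -0.17 ± 0.24.

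Of the 4 luminal cofactors 3 had a downward fitted change, 2 with upper-quartile scaling. Gm2a (chr11:55098115-55113029, plus strand), the activator that lifts GM2 ganglioside out of membranes for beta-hexosaminidase, was at 480, 567 and 391 CPM in the wild-type samples and at 317, 384 and 354 CPM in the knockouts. The groups did not overlap, though wild-type sample 3 and knockout sample 2 were nearly level. The log2 fold change was -0.45 ± 0.24 (SE), and it was -0.08 in the 3 samples with the most genes. Npc2 (chr12:84754562-84773152, minus strand), which carries cholesterol to NPC1 at the membrane, stood at 1034, 950 and 523 CPM in the wild-type samples and at 513, 544 and 538 CPM in the knockouts. Wild-type sample 3 lay within the knockout range, so the difference came from wild-type samples 1 and 2. The fitted change was -0.65 ± 0.28 (SE), and it was 0.06 in the 3 samples with the most genes. Progranulin (Grn), a glycoprotein split into granulins in the lysosome, was at 2659, 3090 and 2496 CPM in the wild-type samples and at 3149, 3492 and 2958 CPM in the knockouts. Its genotypes overlapped through wild-type sample 2 alone, with a change of 0.22 ± 0.14 (SE). Psap, the precursor of the saposins that serve sphingolipid hydrolases, was at 1610, 3089 and 2638 CPM in the wild-type samples and at 2939, 1662 and 2448 CPM in the knockouts.

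Among the 6 membrane proteins none separated the genotypes, and 5 had a downward and 1 an upward fitted change, 3 each with upper-quartile scaling. Their median was -0.14, or 0.01 with upper-quartile scaling. In the 3 samples with the most genes that median was 0.17. Laptm5 stood at 6166, 4842 and 4883 CPM in the wild-type samples and at 4946, 5264 and 4896 CPM in the knockouts. Lamp1, a major glycoprotein of the lysosomal coat, was at 2401, 1994 and 1628 CPM in the wild-type samples and at 1576, 2037 and 1874 CPM in the knockouts. Wild-type sample 1 was the highest for both. For Lamp1 the remaining samples of the 2 genotypes intermingled, while for Laptm5 wild-type samples 2 and 3 lay just below all 3 knockout samples. Lamp2, a coat glycoprotein that also serves autophagy, was at 673, 909 and 651 CPM in the wild-type samples and at 864, 477 and 666 CPM in the knockouts. Mcoln1, a calcium channel, and Cln3, a membrane protein lost in juvenile Batten disease, had log2 fold changes of -0.21 ± 0.53 and 0.14 ± 0.42. The largest estimate was for Npc1, the membrane cholesterol transporter, at -0.75 ± 0.54 (SE).

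The proton pump genes had 7 upward and 8 downward changes, 8 and 7 with upper-quartile scaling, and their median of -0.12 was then 0.01. Of the 5 V0 subunits 3 were upward, 2 with RLE and 4 with upper-quartile scaling. Of the 8 V1 subunits 3 were upward under each of the 4 scalings. Atp6v0a1 (chr11:101009452-101063719, plus strand), an isoform of the large proton-path subunit a, was at 128, 64.7 and 124 CPM in the wild-type samples and at 170, 269 and 184 CPM in the knockouts. All knockout values were above all wild-type values, with knockout sample 2 the highest and wild-type sample 2 the lowest. The log2 fold change was 0.98 ± 0.42 (SE). Atp6v0b, a proteolipid of the rotor ring and the V0 gene with the highest level per kilobase, had 742, 864 and 777 CPM in the wild-type samples and 758, 622 and 806 CPM in the knockouts, a change of -0.12 ± 0.19. Atp6v0c, the main ring proteolipid, was listed at only 19.7 to 27.9 CPM. Since 32.5% of its 50-base stretches also occur in other transcripts, including the pseudogenes Atp6v0c-ps1 and Atp6v0c-ps2, its count is uncertain.

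In the V1 sector Atp6v1f, a stalk subunit with the highest V1 level per kilobase, was at 124, 145 and 114 CPM in the wild-type samples and at 138, 112 and 96.7 CPM in the knockouts. Atp6v1g1, another stalk subunit, was at 191, 75.8 and 122 CPM in the wild-type samples and at 61.7, 80.7 and 64.6 CPM in the knockouts. Wild-type sample 2 fell within the knockout range, and the change was -0.91 ± 0.52 (SE). For these 2 genes 18.2% and 19.2% of the 50-base stretches are shared with other transcripts. The catalytic subunit Atp6v1a and its partner Atp6v1b2 had changes of 0.01 ± 1.16 and -0.68 ± 0.58. Atp6v1c1 and Atp6v1h were at 1.32 and 4.06 CPM in wild-type sample 1, and Atp6v1h was also at 0.795 CPM in wild-type sample 2. Their other samples ranged from 30.2 to 469 CPM.

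Both accessory proteins are encoded on the X chromosome, as are Gla and Lamp2. Atp6ap2 (chrX:12587801-12617049, plus strand), also known as the prorenin receptor, stood at 368, 567 and 312 CPM in the wild-type samples and at 300, 205 and 293 CPM in the knockouts. The groups did not overlap, wild-type sample 3 and knockout sample 1 being nearly level, and the log2 fold change was -0.64 ± 0.32 (SE). Among the knockout samples the one with low Xist, sample 2, had the lowest value. With the Xist covariate the change was -0.97. Atp6ap1, an assembly partner of V0, was at 970, 584 and 572 CPM in the wild-type samples and at 966, 784 and 775 CPM in the knockouts, a change of 0.25 ± 0.26.

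**Figure D3:**
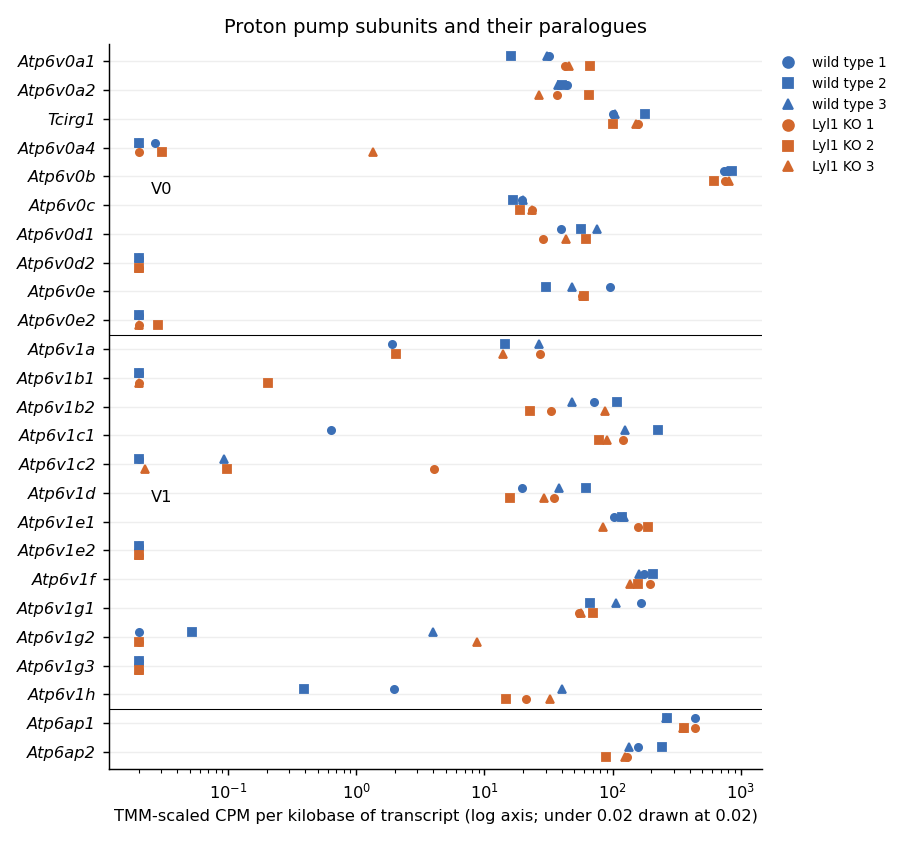
CPM per kilobase of transcript (log axis, values under 0.02 drawn at 0.02) of every pump subunit, its paralogues and the 2 accessory genes in each sample. Paralogues such as Atp6v0d2 and Atp6v1e2 sit at the left edge in all 6 samples, while the a subunits Atp6v0a1, Atp6v0a2 and Tcirg1 were all present.

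For subunits d, e, B, C and E of the pump, 1 gene made up at least 96.8% of the RNA per kilobase in every sample, while subunits a and G were more mixed. Atp6v0d2, Atp6v1e2 and Atp6v1g3 had no read in any sample, and Atp6v0e2 and Atp6v1b1 had 1 and 8 reads in all, both only in knockout sample 2. Atp6v1c2 had 149 reads, mostly in knockout sample 1, and Atp6v1g2 had 516, mostly in wild-type sample 3 and knockout sample 3, where it made up 3.56% and 13.4% of subunit G RNA per kilobase. Atp6v0a4, with 131 reads, was nearly confined to knockout sample 3. Per kilobase, Tcirg1, the a3 isoform of osteoclasts and macrophages, made up 64.4% ± 10.1 (SD, n = 3) of subunit a RNA in wild type and 59.1% ± 13.9 in knockout. Atp6v0a1 made up 18.0%, 6.85% and 17.9% in wild-type samples 1 to 3 and 17.8%, 28.7% and 20.1% in the knockout samples. Its share overlapped between genotypes through knockout sample 1, although its CPM did not. Tcirg1 and Atp6v0a2, the only paralogues that passed the count filter, had log2 fold changes of 0.11 ± 0.32 and 0.08 ± 0.39.

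The spread between samples depended on level. The median coefficient of variation of the 7 members at a mean of 1000 CPM or above was 14.2% for wild type and 8.45% for knockout, beside 17.5% and 10.7% for all 97 genes at that level. For the 12 members from 200 to 1000 CPM it was 19.7% and 14.5%, against 29.8% and 20.3% for 649 genes. Below 200 CPM it was 45.6% and 38.3% for 25 members, against 90.1% and 61.1% for 9648 genes, many of them lower than any member. Members under 10 CPM numbered 5 and 3 in wild-type samples 1 and 2, 1 in wild-type sample 3, 2 in knockout sample 2 and none in knockout samples 1 and 3. Among tested genes with a mean of 10 to 200 CPM, 34.4% and 31.5% were under 10 CPM in wild-type samples 1 and 2, and 10.1% to 19.8% in the other 4. Examples are Glb1, the beta-galactosidase, at 3.61 CPM in wild-type sample 1, and Arsa, the sulphatide sulphatase, at 7.07 CPM in wild-type sample 2. Such low values lay mainly in wild-type samples 1 and 2, and their part in the differences above was not tested.

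**Figure D4:**
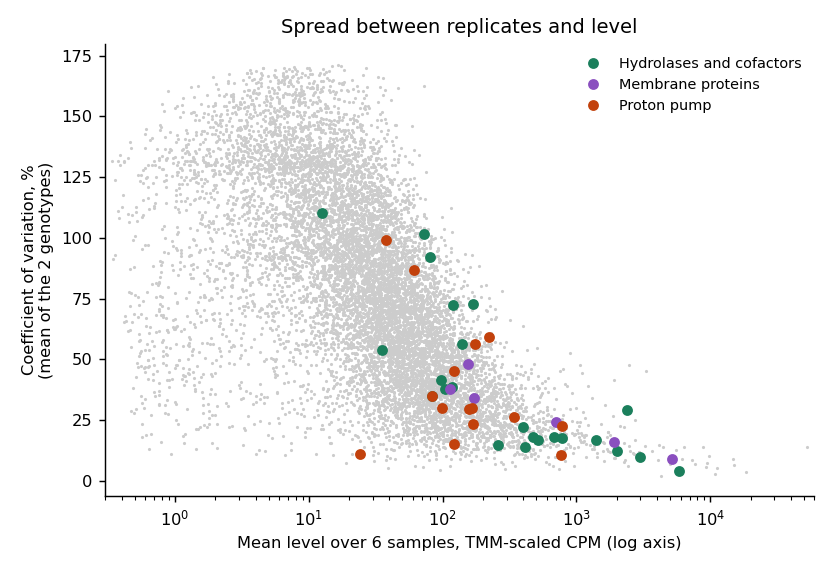
Coefficient of variation between replicates (mean of the 2 genotypes, in percent) against the mean level over 6 samples (log axis) for all tested genes in grey and the members in colour. Members above 1000 CPM lie at the lower right, and the members with the widest spread, among them Gla, lie below 200 CPM.

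Of 82 genes in 5 further lists (pump paralogues, regulators, sorting factors, other soluble and other membrane proteins), 71 were tested and none had an adjusted p under 0.05. Of these, 29 had an upward and 42 a downward change, beside 5063 and 5331 of all tested genes. Their median was -0.28, beside -0.03 over all tested genes. It was negative under all 4 scalings, which move all genes together, and whether the list differs from other genes was not tested. In 3 of the 71 the genotypes did not overlap, against 1160 of all 10394 tested genes. At an unadjusted p under 0.05 there were 2 of the 71, beside 2.84% of all tested genes. One was Rragc, a GTPase that brings the growth regulator mTORC1 to the lysosome, at 302, 248 and 309 CPM in the wild-type samples and 142, 101 and 155 CPM in the knockouts. Its log2 fold change was -1.11 ± 0.32 (SE), and its partner Rraga also stood lower in each knockout sample, at -1.29 ± 0.69 (SE). The 14 tested regulators had 4 upward and 10 downward changes, with a median of -0.43. The other was Aga, a glycoprotein amidase, at 139, 266 and 130 CPM in the wild-type samples and 42.2, 89.6 and 71.2 CPM in the knockouts, a change of -1.40 ± 0.51 (SE). The 22 tested soluble proteins split evenly with a median of 0.01, which was -0.07 with RLE scaling, while the 13 sorting factors had 8 and the 20 membrane proteins 13 downward changes, with medians of -0.34 and -0.33. Within the sorting list the smallest p belonged to Ap3d1, a coat subunit that routes cargo to lysosomes, at -1.05 ± 0.60, and within the membrane list to Cd68, a macrophage lysosomal glycoprotein, at -0.39 ± 0.19.

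Of factors that can bind CACGTG, the RNA of Tfe3, Tfeb, Mitf and Tfec was examined. Tfe3 had the highest CPM, at 291, 269 and 218 in the wild-type samples and 197, 322 and 275 in the knockouts, and a log2 fold change of 0.03 ± 0.30. Tfeb was at 55.2, 0.199 and 58.1 CPM in the wild-type samples and 23.3, 79.5 and 78.8 CPM in the knockouts. Mitf ranged from 1.76 to 22.8 CPM, and Tfec had over 0.1 CPM only in knockout sample 2, at 10.5 CPM. The 13 members with CACGTG in the window, including the Lamp1, Mcoln1, Gla, Naglu and Atp6v0b stretches printed above, had 6 upward and 7 downward changes, 10 and 3 with upper-quartile scaling, and a median of -0.05. The 25 members with a window and no CACGTG had 11 upward and 14 downward changes with a median of -0.06. Naglu was the only one of the 13 whose genotypes did not overlap, against 7 of the 25 without the motif. Over all tested genes it was 1160 of 10394, and whether these shares differ was not tested.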

How the data were processed

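Poly(A) RNA of about 1000 sorted microglia per sample was amplified and sequenced as 50-base single reads, per the labels' protocols. The authors deposited 1 table of raw counts per gene for the 6 samples. The submitters' processing notes name STAR 2.5.2b, featureCounts 1.5.1 and the build GRCm38; for reads matching several genes the treatment is not given in the sources used here. Left out were the 92 spike-in entries (at most 66 reads per sample), leaving 48587 genes. Counts were tested with edgeR 4.0.16 in R 4.3.3 (glmQLFit and glmQLFTest, 2-sided, genotype only, TMM, filterByExpr with a minimum of 10 reads), checked on simulated data. Non-overlap of 3 against 3 samples cannot give an exact permutation p below 0.1. Lengths came from the GENCODE M21 principal transcript, and shared 50-base stretches from all its transcripts. Samples were grouped by their genotype labels. All 44 members, the other lists and the tests were chosen with earlier results of these data known. Values in all 6 samples are given for the 12 members with the smallest p, the 3 with the highest level per kilobase in each of the soluble, membrane and pump groups, members without overlap and members with 3 reads or fewer in a sample, and up to 3 genes of each other list were eligible by p. Alternatives were other scalings, filters, designs and tools (DESeq2 1.42.0, limma 3.58.1) and leaving out each sample.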

Additional observations from a re-analysis of the deposited data

How the results depend on the processing

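Across 16 alternatives, 10 of the 12 members with the smallest p kept the sign of their change. Npc2 (0.0557) and Asah1 (-0.0689) reversed in the 3 samples with the most genes, an alternative added after the data were seen; the cause was not tested. Hexa had an unadjusted p under 0.05 in 14 alternatives and Tpp1 in 11, Npc2 in 5 and Atp6v0a1 in 4. In the 3 samples with the most genes the log2 fold changes of Hexa and Gm2a shrank to -0.18 and -0.08. Those of Tpp1, Atp6v0a1 and Lipa were 0.59, 0.88 and 1.26 there. No member had an adjusted p under 0.05 in any of the 16. Genes called numbered 8 of 22005 with no filter on low counts and 52 with DESeq2, where edgeR called 0 with 295 at an unadjusted p under 0.05. Members at an unadjusted p under 0.05 numbered 4, and 2 with RLE scaling, 2 with the replicate block and 0 with the Xist covariate. Among all tested genes the shares were 2.84%, 2.95%, 1.65% and 3.45%. Leaving out 1 sample gave 1 (without knockout sample 1) to 6 (without wild-type sample 3), with 2 without knockout sample 2 or 3. The share of all tested genes was 10.5% without wild-type sample 3. It was 2.37%, 2.37% and 3.10% without knockout samples 1, 2 and 3. The median log2 fold change of the hydrolases and cofactors (-0.03) was 0.12 with upper-quartile scaling, 0.10 with library size only and 0.24 with limma-voom. It was 0.0822 with the replicate block, 0.16 with the Xist covariate and -0.11 with RLE scaling or DESeq2. With 1 sample left out it ran from -0.00046 to 0.21 (without wild-type sample 1). Over all tested genes the median (-0.03) was 0.09, 0.07 and 0.20 with upper-quartile scaling, library size only and limma-voom. It was 0.18 with the replicate block, -0.27 with the Xist covariate and -0.09 with RLE scaling or DESeq2. For the membrane proteins the median (-0.14) was 0.17 in the 3 samples with the most genes, beside 0.10 over all tested genes. It ran from -0.20 to 0.03 with 1 sample left out. That of the pump (-0.12) was 0.0125 with upper-quartile scaling and -0.0144 with library size only, and from -0.16 to -0.0037 (without knockout sample 2) with 1 sample left out. Samples with the same number did not deviate together (correlations of 0.02, 0.00052 and 0.08 across genes), so the numbers were not taken as pairs. Low counts limit members such as Gla, where 0 and 5 reads stood behind the values of wild-type samples 2 and 3. The sample with 0, wild-type sample 2, had the most reads assigned to genes, at 27378614.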

Other observations

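Atp6v0a1 and Naglu, which both stood higher in each knockout sample, are neighbours on chromosome 11. They lie in the same orientation with 6292 bases between the end of Atp6v0a1 and the start of Naglu (GRCm38, GENCODE M21), and they were the only members within 50 kb of each other. The pair was singled out after its values were seen. Of the 5 other protein-coding genes within 50 kb, Coasy, Mlx, Psmc3ip and Tubg1 were tested. All 4 overlapped between genotypes, with log2 fold changes of -0.60 ± 0.67, -0.10 ± 0.72, -1.46 ± 2.73 and -0.10 ± 1.26 (edgeR, SE). The fifth, Hsd17b1, had reads in knockout sample 3 only, at 1.36 CPM.

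Members that handle the same substrate did not all point one way. Hexa and its activator Gm2a, which both act on GM2 ganglioside, stood lower in each knockout sample, at 0.681 and 0.733 times the wild-type mean. Of the cholesterol-handling members, Npc1 and Npc2 had knockout means of 0.596 and 0.636 times wild type, with overlap between the genotypes. Lipa, without overlap, had 2.03 times. These groupings were made after the values were seen and carry no test.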
